A study of Rattus norvegicus with 12 samples.

Results

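The transcripts described here encode 6 factors of mRNA decay, silencing and transport, namely ZFP36, ZFP36L1, AGO2, STAU2, LSM6 and EXOSC4. They were chosen by name, and their clones were found as all spots that the platform annotation assigns to 1 of these symbols alone, which gave 8 clones of 6 genes among the 6284 genes named on the array and its 9600 spots. AGO2 and STAU2 had 2 clones each, called the brighter and the dimmer clone by mean intensity, and the other genes had 1. The genes were picked with differences between stimulated and silenced arrays already known, so those differences are given as a description and carry no test.

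Neurons from the hippocampus of Sprague Dawley rat embryos (embryonic day 18.5) were cultured for 12 days on a layer of glia, so RNA of glial cells could be present in every sample. Synaptic activity was raised with 50 µM bicuculline and 500 µM 4-aminopyridine (BiC/4AP), which lift inhibition and prolong action potentials, or was silenced in Block, a cocktail of blockers of NMDA receptors (D-APV, 50 µM), of AMPA receptors (CNQX, 40 µM) and of sodium channels (TTX, 100 nM). BiC/4AP and Block cultures were taken at 5, 30 and 60 min, each with and without 25 µM actinomycin D (ActD), an inhibitor of transcription, and every culture had first been held in Block for 3 h. This made 12 conditions with 1 array each, without replicate arrays. The labels give 5, 30 and 60 min as treatment times, whereas the methods describe a short stimulus with RNA taken at its end or after it, so a time may mean either.

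An mRNA is removed in steps. Its poly(A) tail is shortened, its cap is taken off, and the body is digested by exonucleases from either end. ZFP36 (tristetraprolin) and ZFP36L1 are zinc finger proteins that bind AU-rich elements of short-lived mRNAs, among them many early response transcripts, and recruit the deadenylation machinery, and both genes are themselves known as early response genes. AGO2 is the Argonaute protein that carries miRNAs to their targets and can cut a fully matched one. LSM6 belongs to the ring of LSM proteins that binds shortened tails and promotes decapping, and also to the nuclear ring of U6 RNA. EXOSC4 is a core subunit of the RNA exosome, which digests RNA from the 3′ end. STAU2 binds double-stranded RNA and carries mRNAs into dendrites of neurons.

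Promoters of 3 of the 6 genes were matched in RefSeq (GRCr8), those of Zfp36, Zfp36l1 and Lsm6. The 30 bases around the matches found in the 250 bases before the start are shown for the ZFP36 family, because this family is set against the other genes below. Capitals mark a CArG box in Zfp36, the element to which serum response factor binds, and the letters TATAAA in Zfp36l1. Zfp36 lay at chr1:92799121-92799150 and Zfp36l1 at chr6:104668727-104668756, both on the minus strand.
Zfp36: ccgggccgccCCATAAAAGGcgaaagctcc
Zfp36l1: accctcatatctTATAAAttgggctttgct
The CArG box of Zfp36 occupied bases 32 to 23 before the start, and the TATAAA of Zfp36l1 bases 54 to 49. On either strand, 1.5% of 33469 rat promoters of this length held a CArG box, 12.9% held TATAAA and 1.59% held TGACGTCA, the cAMP response element. Zfp36 and Zfp36l1 each held only the match shown in the 250 bases searched, and Lsm6 held none of the 3. Such matches describe the letters only.

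The files hold linear intensities of radioactive spots. Array medians were 24.53 to 31.765 at 5 min, 37.44 to 58.515 at 30 min and 53.53 to 69.755 at 60 min, so raw values differed with the array and not only with the gene. Log2 intensities were therefore set to the same mean and spread on each array, and these scaled log2 values are used below. All 8 clones exceeded the 95th percentile of blank spots on all 12 arrays, by at least 1.41-fold in the weakest case, the dimmer STAU2 clone. This limit was 10 to 22.7, and depending on the array 89.6% to 97.2% of the spots with 1 symbol exceeded it. Passing it therefore does not set the members apart. The array of 30 min BiC/4AP was the least like the rest, as its correlations with the other 11 over spots had a median of 0.913, against 0.926 to 0.950 for those arrays. Mean intensity was 227 for the brighter AGO2 clone, the 92.6th percentile of all spots, and 33.6 for the dimmer STAU2 clone, the 30.9th percentile. ZFP36L1 was dim, with a mean of 38.8 and a percentile of 39.8. In these bulk RNA samples fewer cells of a type and less RNA per cell cannot be told apart.

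ZFP36L1 was higher with BiC/4AP at 60 min, both with and without ActD. Its intensity was 109.84 with BiC/4AP + ActD and 81.89 with BiC/4AP at 60 min, against 34.3 in Block + ActD and 36.37 in Block. On the scaled log2 scale these levels were 0.75 and 0.44 with BiC/4AP, against -0.90 and -1.03 in Block. The 2 stimulated arrays at 60 min were the highest of the 12 for this clone, since the other 10 lay between -1.25 and -0.48. The difference between BiC/4AP and Block was 1.65 with ActD and 1.47 without.

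To set a difference against those of other clones, it was expressed in units of the SD of all spots on the same pair of arrays, which is the z-fold of the study, with a cut of 1.4 in either direction. The z-fold of ZFP36L1 at 60 min was 3.11 with ActD and 2.65 without. Past the cut were 9.12% of all spots at 60 min with ActD and 8.18% without, and 96 spots (1%) were past it on the higher side in both pairs. Larger z-folds than that of ZFP36L1 occurred in 108 spots with and 129 spots without ActD, mostly among the dimmest spots, as only 8 and 10 of the 7200 spots above the lowest 25% of intensity exceeded it. The other 23 spots of its print block reached at most 0.70 with and 0.73 without ActD. Over the alternative scalings the z-fold was 3.11 to 4.81 with ActD and 2.33 to 4.57 without.

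Earlier times gave no such difference for ZFP36L1. At 5 min its intensity was 19.01 with BiC/4AP + ActD and 20.06 with BiC/4AP, against 21.89 in Block + ActD and 15.17 in Block, and the z-folds were -0.11 with and 0.95 without ActD. At 30 min it was 35.74 with BiC/4AP + ActD and 26.41 with BiC/4AP, against 26.54 in Block + ActD and 37.94 in Block, and the z-folds were 0.21 and -0.27. The z-fold at 5 min without ActD was past 1.4 in 3 of the alternative settings, up to 1.61. Whether the activity difference depended on time was not tested.

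Astrocyte markers stood higher in the same 60 min arrays, and their median z-fold was above 0 at 30 min too. The astrocyte markers on the array were GFAP, VIM, S100B and SOX9, each with 1 clone, and other markers of the list, AQP4 among them, were not analysed here. VIM and SOX9 were dim, with mean intensities of 19.9 and 19.7 that lay within the lowest 25% of spots. The median z-fold of the 4 clones at 60 min was 0.88 with and 0.62 without ActD, with 4 of 4 and 3 of 4 above 0. Their summed intensity at 60 min was 4.22 to 4.61 times the array median with BiC/4AP, against 3.08 to 3.27 times in Block. At 60 min GFAP, the filament protein that defines astrocytes, had z-folds of 0.61 with and 1.12 without ActD. Of the 4 clones 1 was past the cut in 1 pair at this time, SOX9 with ActD at 1.55. At 30 min the median z-fold of the 4 clones was 0.41 with and 0.25 without ActD, with 3 of 4 above 0 in each pair. VIM was past the cut at 30 min without ActD (1.57) and at 1.22 with ActD. The 6 clones of neuronal markers had median z-folds of 0.34 with and -0.06 without ActD at 60 min. At 5 min their medians were 0.57 with and 0.77 without ActD, and at 30 min -0.41 and -1.39. Of these 6 clones 3 were past the cut on the higher side at 5 min with ActD. At 30 min without ActD 3 were past it on the lower side and 0 were above 0. Summed intensity of other marker lists was higher at 60 min too, at 11.4 to 11.6 times the array median with BiC/4AP against 10.01 to 10.1 times in Block for neurons, and 161 to 212 against 127 to 149 times for microglia. For oligodendrocytes it was 50.2 to 51.2 times with BiC/4AP against 37.6 to 45.2 times in Block, whereas fibroblasts and vessels overlapped (1.92 to 2.67 against 1.88 to 2.14 times). Such sums follow the brightest clones, C1QB (mean intensity 10912) for microglia and 1 clone of CNP (1723) for oligodendrocytes. Median z-folds at 60 min were below 0 for microglia, at -0.58 with and -0.33 without ActD (0 of 4 and 2 of 4 clones above 0). For oligodendrocytes they were -0.22 and -0.36, with 2 of 4 clones above 0 in each pair. The part of these markers in the ZFP36L1 difference was not tested.

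ZFP36, the founding member of the family, showed no difference of this size. At 5 min its intensity was 68.07 with BiC/4AP + ActD and 78.07 with BiC/4AP, against 75.64 in Block + ActD and 63.01 in Block. At 30 min it was 82.82 with BiC/4AP + ActD and 96.66 with BiC/4AP, against 87.01 in Block + ActD and 90.4 in Block. At 60 min it was 78.17 with BiC/4AP + ActD and 70.27 with BiC/4AP, against 79.79 in Block + ActD and 82.5 in Block. The z-folds at 5, 30 and 60 min were -0.07, -0.75 and -0.28 with ActD, against 0.73, 0.69 and 0.09 without. They were thus below 0 in 3 of 3 pairs with ActD and above 0 in 3 of 3 pairs without, but 0 of the 6 values were past the cut. With the medians of print block and position removed this split was lost, as the z-fold was 0.18 at 30 min with ActD and -0.57 at 60 min without. The interaction of activity with ActD was estimated at -0.498 ± 0.24 (SE) on the scaled log2 scale for this clone, and over all 9600 spots limma called 0 for it, with 248 at an unadjusted p under 0.05.

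**Figure D1:**
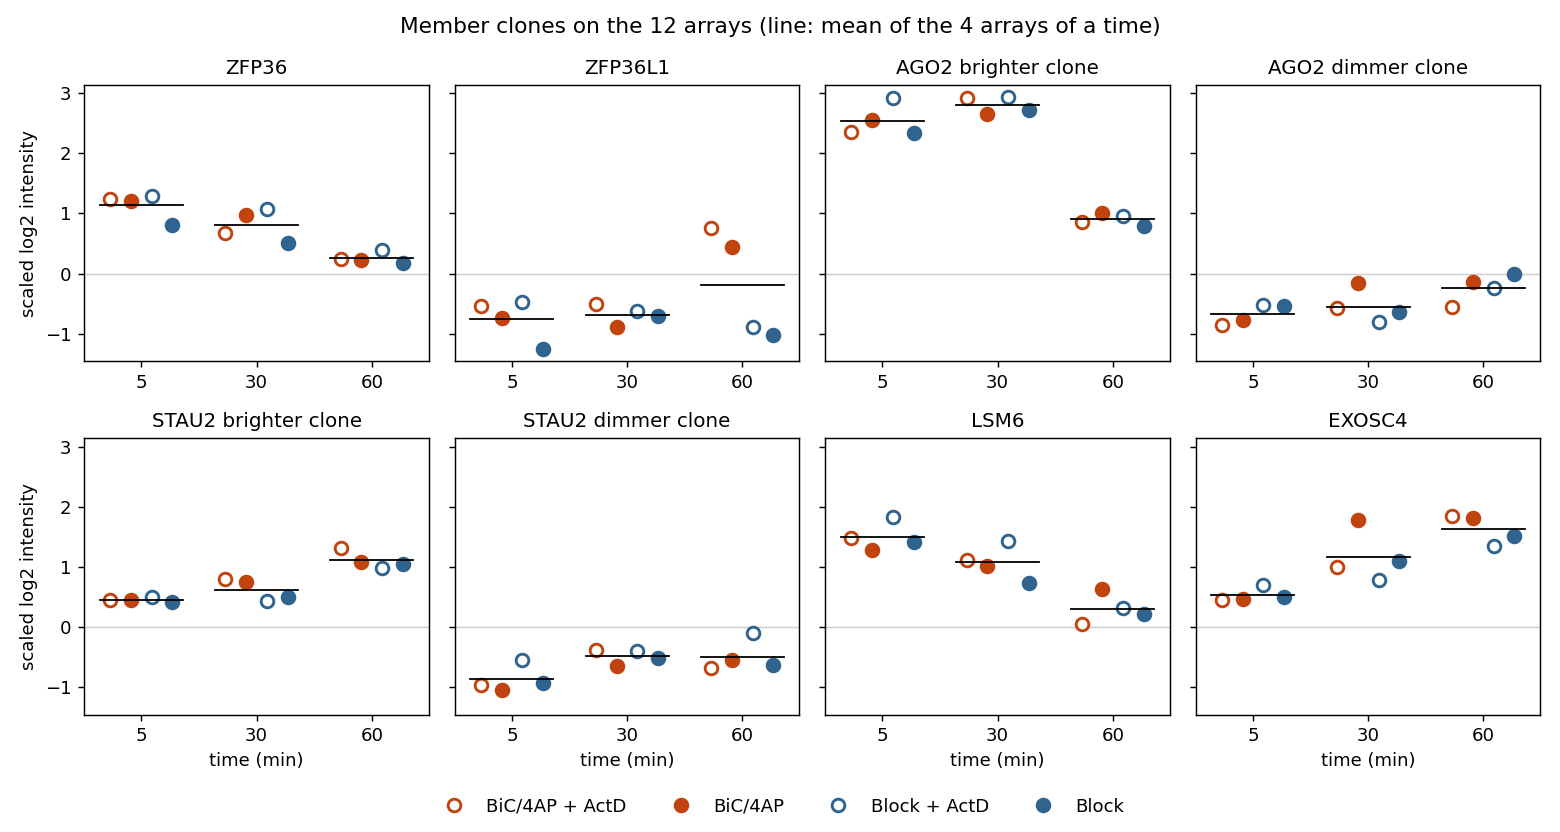
Scaled log2 intensity of the 8 member clones (vertical axis) at 5, 30 and 60 min (horizontal axis), 1 point per array, with BiC/4AP in red left of Block in blue, open points with ActD, and a line at the mean of the 4 arrays of a time. ZFP36L1 at 60 min separates BiC/4AP (0.75 and 0.44) from Block (-0.90 and -1.03), and the brighter AGO2 clone lies at 0.79 to 1.003 on the 4 arrays of 60 min.

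The ZFP36 family and the other factors differed at 60 min by this 1 clone. Of the 12 z-folds of the family 2 were past the cut and 7 were above 0, with a median of 0.15, whereas of the 36 z-folds of AGO2, STAU2, LSM6 and EXOSC4 0 were past the cut and 17 were above 0, with a median of -0.03 and a range from -1.12 to 1.02. Over all spots and pairs 8.45% of values were past the cut, and 3.95% among spots above the lowest 25% of intensity, so the share of 2 in 48 values of the members (both of ZFP36L1) lay between these. The values nearest to the cut on its inner side were those of the dimmer STAU2 clone at 60 min with ActD (-1.12), EXOSC4 at 30 min without ActD (1.02) and the brighter AGO2 clone at 5 min with ActD (-0.995). Over all times, the activity difference was 0.58 ± 0.22 (SE) for ZFP36L1, 0.05 ± 0.13 for ZFP36, and -0.20 to 0.24 for the clones of the other genes. The same fit (limma) called 0 of 9600 spots (0%) for activity at an adjusted p under 0.05, with 448 at an unadjusted p under 0.05.

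**Figure D2:**
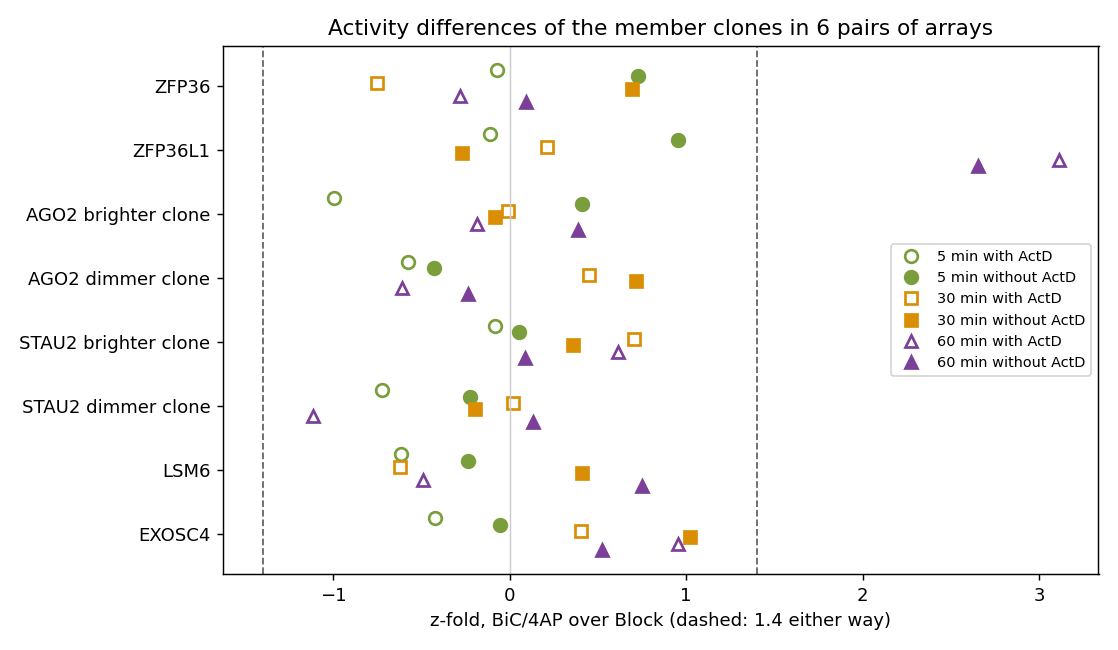
z-fold of BiC/4AP over Block (horizontal axis, in SDs of the difference over all spots) for the 8 member clones (rows) in the 6 pairs of arrays, with open symbols with ActD, filled symbols without ActD and dashed lines at 1.4 in either direction. The 2 triangles of ZFP36L1 at 60 min (3.11 with and 2.65 without ActD) are the only values outside the lines, and the next is -1.12 for the dimmer STAU2 clone.

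EXOSC4 stayed inside the cut in all 6 pairs. Its intensity at 5 min was 38.61 with BiC/4AP + ActD and 46.53 with BiC/4AP, against 49.83 in Block + ActD and 50.53 in Block. At 30 min it was 103.22 with BiC/4AP + ActD and 169.96 with BiC/4AP, against 71.07 in Block + ActD and 137.82 in Block. At 60 min it was 228.84 with BiC/4AP + ActD and 210.59 with BiC/4AP, against 149.13 in Block + ActD and 207.22 in Block. The z-folds at 5, 30 and 60 min were -0.43, 0.40 and 0.95 with ActD, against -0.05, 1.02 and 0.52 without. At 60 min the scaled levels were 1.85 and 1.81 with BiC/4AP, against 1.34 and 1.52 in Block. LSM6 had z-folds of -0.61, -0.62 and -0.49 at these times with ActD, against -0.24, 0.41 and 0.75 without.

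Clones of 1 gene did not always agree. At 30 min the dimmer AGO2 clone had z-folds of 0.45 with and 0.71 without ActD, whereas the brighter clone had -0.01 and -0.08. At 60 min with ActD the brighter STAU2 clone had 0.62 and the dimmer clone -1.12. The intensity of the brighter STAU2 clone was 159.3 in BiC/4AP + ActD, against 117.52 in Block + ActD, and that of the dimmer clone was 41.94 in BiC/4AP + ActD, against 57.8 in Block + ActD. The brighter STAU2 clone was above 0 in 5 of 6 pairs and the dimmer in 2 of 6, but with print medians removed the counts were 2 and 1 of 6. Both AGO2 clones were above 0 in 2 of 6 pairs, and both were at -0.05 over all times.

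Clones of the wider machinery were read in the same way. Across 8 lists of decay, silencing and transport genes and of AU-rich short-lived mRNAs, 114 clones of 85 genes were measured, 92 of them above the lowest 25% of intensity. Of these 92 clones, 0 were past the cut on the same side in both pairs at 5 min, 0 at 30 min and 1 at 60 min, which was ZFP36L1. Over all spots this share was 1.2% at 5 min, 1.22% at 30 min and 1.6% at 60 min, and over the 7200 spots above the lowest 25% of intensity it was 0.111%, 0.361% and 0.167% at these times, so nothing is read from the count of 1.

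The genes named from each list stand for 1 clone, the one with the largest or smallest mean z-fold. ZFP36L2, the other family member on the array, a decay factor of the same kind, was at a z-fold of 0.53 with and 0.48 without ActD at 60 min, and passed the cut at 5 min with ActD alone (1.51). Among the 8 clones of sequence-specific factors the median at 60 min was 0.44 with and -0.43 without ActD. HNRNPD (AUF1), which also binds AU-rich elements, had 0.36 and -0.93. For deadenylation, CNOT1, the scaffold of the CCR4-NOT complex, had -1.497 with and -0.29 without ActD at 60 min, and CNOT3 had -0.27 and 0.32. For decapping, LSM4 had 0.63 and 0.19 in this clone, while its other clones had 0.06 and -0.18 with ActD, against -0.27 and -0.01 without. The decapping activator DCP1A had -0.39 and -0.21. For the exosome, the cap subunit EXOSC3 had 0.67 and 0.59 (0.11 and 0.17 in its other clone), whereas the ring subunit EXOSC5 had -1.65 and -0.45.

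In the silencing list, XPO5, which exports miRNA precursors from the nucleus, had z-folds of 1.04 with and 0.36 without ActD at 60 min, but its other clone had 1.32 and -0.69. DGCR8, the partner of the nuclear processing enzyme, had -0.36 and -1.004, and its other clone -0.48 and 0.15. In the transport list, CAPRIN1, a protein of neuronal RNA granules, had 0.42 and -0.01, and G3BP1, of stress granules, had -1.01 and -0.06. Of the nonsense-mediated decay list, SMG9 had 0.26 and 0.34, and the clone of EIF4A3, of the exon junction complex, with the smallest mean z-fold had 0.12 and -0.46, against -0.20 and 0.75 in the second clone and -1.83 and -0.84 in the third. The 33 clones of AU-rich short-lived mRNAs, the kind of transcript that the ZFP36 family binds, had median z-folds of -0.10 with and 0.00 without ActD at 60 min, with 1 higher and 1 lower past the cut in each pair. JUNB, of the AP-1 complex, had 0.81 and -0.01 there, and its other clones 0.82 and 0.05 with ActD, against -0.16 and 0.38 without. The cell cycle inhibitor CDKN1A had -0.37 and -0.87, and its other clones 0.59 and -0.80 with ActD, against 0.15 and 0.24 without, so clones of 1 gene differed in direction here too. At earlier times, the named clones of JUNB (2.17), CAPRIN1 (1.89) and CNOT1 (-1.48) passed the cut at 5 min with ActD. The other JUNB clones had 2.18 and 0.24 in that pair. The named clone of DGCR8 passed the cut at 30 min without ActD (-1.75).

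**Figure D3:**
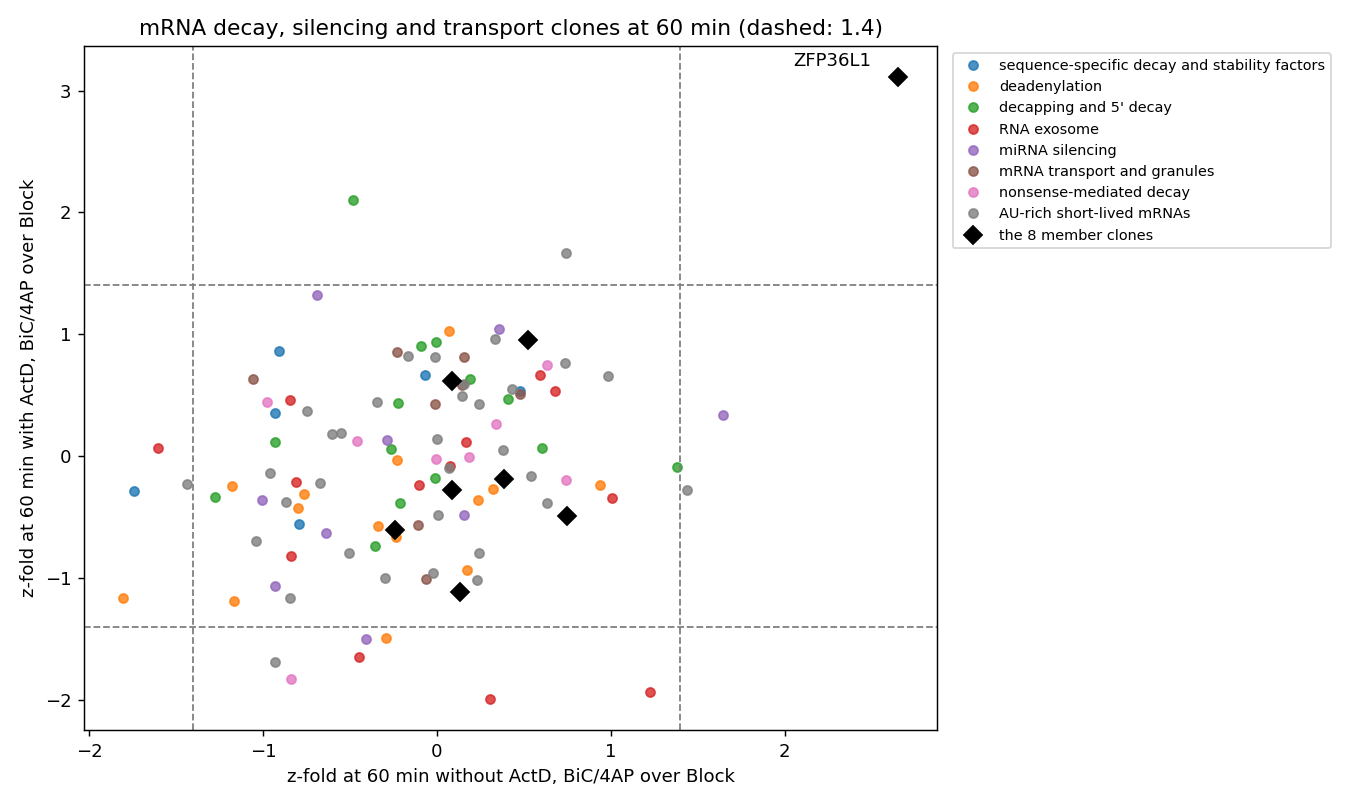
z-fold of BiC/4AP over Block at 60 min without ActD (horizontal axis) and with ActD (vertical axis) for the 114 clones of the 8 lists, coloured by list, with the 8 member clones as black diamonds and dashed lines at 1.4 in either direction. ZFP36L1 (2.65 without and 3.11 with ActD) is the only point in the upper right corner.

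The second question was how the levels differed between times, with both treatments as covariates. These comparisons carry a test over all spots, although it is not recorded how far they entered the choice of the genes. Time could not be separated from the array number, as the 4 arrays of each time carry consecutive numbers, so the 2 cannot be told apart.

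The brighter AGO2 clone was lower at 60 min than at 30 min. At 5 min its intensity was 151.21 with BiC/4AP + ActD and 201.08 with BiC/4AP, against 239.07 in Block + ActD and 180.14 in Block. At 30 min it was 403.52 with BiC/4AP + ActD and 313.48 with BiC/4AP, against 320.55 in Block + ActD and 441.22 in Block. At 60 min it was 117.75 with BiC/4AP + ActD and 120.59 with BiC/4AP, against 115.42 in Block + ActD and 125.85 in Block, so raw intensity was lowest at 60 min on all 4 arrays, whereas the lowest array median was at 5 min. Scaled levels were 2.33 to 2.93 at 5 min, 2.66 to 2.93 at 30 min and 0.79 to 1.003 at 60 min, and the 60 min arrays did not overlap with the other 8. The difference of 60 from 30 min was -1.91 ± 0.15 (SE, 4 arrays against 4, limma, adjusted p = 7.65e-07), and 49 of 9600 spots had a lower one.

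The other AGO2 clone did not share this fall. Its intensity was 15.24 to 24.79 at 5 min, 23.28 to 43.87 at 30 min and 45.81 to 73.07 at 60 min, and its difference of 60 from 30 min was 0.31 ± 0.17 (limma, adjusted p = 0.43). Thus 1 clone of AGO2 fell by 1.91 and the other was at 0.31, and no level of AGO2 mRNA at 60 min can be given from both. The 23 other spots in the print block of the brighter clone had a median difference of 0.05, between -0.68 and 0.71, so the fall was not shared by its neighbours.

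LSM6 was also lower at 60 min. Intensity ran from 80.05 to 109.97 at 5 min, 99.56 to 112.44 at 30 min and 68.91 to 92.94 at 60 min. Scaled levels of 1.28 to 1.82, 0.74 to 1.44 and 0.05 to 0.63 at these times did not overlap between 30 and 60 min. The difference was -0.77 ± 0.18 (limma, adjusted p = 0.0207), past the threshold in 14 of 19 settings, with an adjusted p of up to 0.14. It lost the call when any of 4 arrays was left out, namely 30 min Block + ActD (-0.67), 60 min BiC/4AP + ActD (-0.65), 60 min Block + ActD (-0.73) or 60 min Block (-0.76). It also lost it in limma without the intensity trend of the variances (adjusted p = 0.060).

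These calls stood in a comparison that was almost wholly in 1 direction. Of 9600 spots 302 (3.15%) passed, 298 (3.1%) lower and 4 higher at 60 min, and 2 of the 8 member clones were among those lower. The spots called lower were bright, with a median intensity of 182 against 45.4 over all spots. They were unevenly spread over the 25 positions of the print blocks, from 1 to 49 at a position, with 49 at the position of LSM6 and 21 at that of the brighter AGO2 clone. They stood for 276 genes, of which 103 had other clones on the array and 9 had more than 1 clone called. Of the 185 other clones of these genes 79 (42.7%) were below 0, against 44.2% of all spots, with a median of 0.04. Of the 114 list clones 6 were called lower and 0 higher, the others being 1 clone each of CNOT8 (-0.77), LSM14A (-1.20), EIF4A3 (-0.92) and MCL1 (-0.99), of deadenylation, decapping, the exon junction complex and cell survival. The MCL1 clone was above the 95th percentile of blank spots on only 5 of 12 arrays. The part of print position and brightness in the AGO2 and LSM6 differences was not tested. With the medians of print block and position removed both remained past the threshold. Such a median is taken over all spots of a block or position, so it cannot remove a shift of bright spots alone.

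The remaining clones did not pass for 60 against 30 min. Of all spots 14.8% had an unadjusted p under 0.05 for it in limma. ZFP36 was at -0.55 ± 0.16 (limma, adjusted p = 0.080), with scaled levels of 0.50 to 1.07 at 30 min and 0.17 to 0.39 at 60 min. The brighter STAU2 clone was at 0.49 ± 0.14 (limma, adjusted p = 0.072), with scaled levels of 0.43 to 0.80 at 30 min and 0.98 to 1.31 at 60 min. The dimmer STAU2 clone was at -0.01 ± 0.16 (limma, adjusted p = 0.99). EXOSC4 was at 0.47 ± 0.18 and ZFP36L1 at 0.50 ± 0.26, where its 2 stimulated arrays alone lay above the 30 min range.

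For 30 against 5 min, limma called 39 of 9600 spots (0.406%), 2 higher and 37 lower, and 0 of the 8 member clones. EXOSC4 was nearest, with 0.64 ± 0.18 (limma, adjusted p = 0.12). Its scaled levels were 0.45 to 0.69 at 5 min and 0.78 to 1.78 at 30 min. Of all spots 15.2% had an unadjusted p under 0.05 for this comparison in limma. The other clones were at -0.42 (LSM6) to 0.39 (the dimmer STAU2 clone). ZFP36, LSM6 and the brighter AGO2 clone had their lowest mean scaled level at 60 min. EXOSC4, ZFP36L1, the brighter STAU2 clone and the dimmer AGO2 clone had their highest at 60 min, and the dimmer STAU2 clone at 30 min. Raw intensity of ZFP36 was not lowest at 60 min, as it was 63.01 to 78.07 at 5 min and 70.27 to 82.5 at 60 min.

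**Figure D4:**
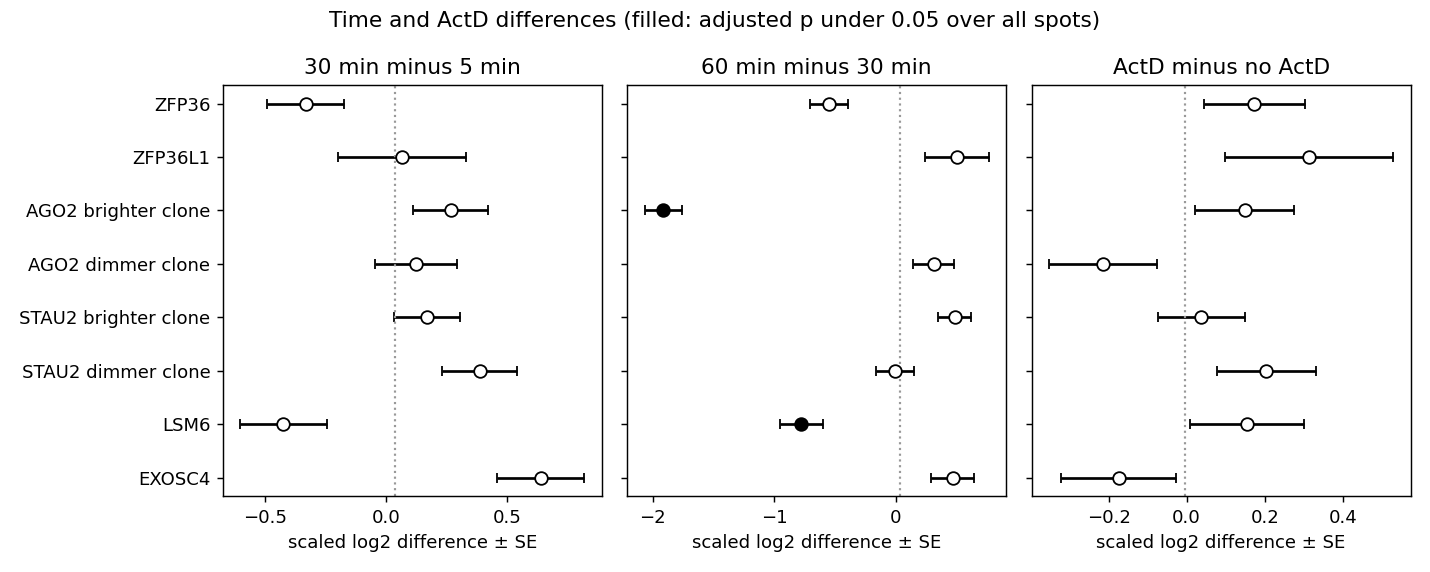
Difference of scaled log2 levels ± SE (horizontal axis) of the 8 member clones (rows) for 30 minus 5 min, 60 minus 30 min and ActD minus no ActD, with filled points past an adjusted p of 0.05 over all spots and a dotted line at the median of all spots. The brighter AGO2 clone (-1.91) and LSM6 (-0.77) at 60 minus 30 min are the filled points.

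The last comparison asked how levels changed once transcription was blocked. ActD against no ActD, over all times and both activities, gave 0 of 9600 calls (0%) in limma at an adjusted p under 0.05, with 225 at an unadjusted p under 0.05. The 8 member clones lay between -0.21 ± 0.14 (the dimmer AGO2 clone) and 0.31 ± 0.22 (ZFP36L1), all with an adjusted p of 0.985 (limma). ZFP36L1 was higher with ActD in 6 of 6 pairs of the same time and activity, by 0.09 to 0.77, while the dimmer AGO2 clone was lower in 5 of 6. The brighter AGO2 clone was higher in 4 of 6. ZFP36, LSM6 and the dimmer STAU2 clone were higher in 5 of 6, the brighter STAU2 clone in 4 and EXOSC4 in 2. The share of all spots with such counts was not determined, so nothing is read from them. Since each array was set to the same mean, a loss of all transcripts together would not appear in these values.

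Clones with the most similar course over the 12 arrays, after the mean of each time was removed, were sought among the 6600 brighter clones with a name. For ZFP36L1 they were EPHA4 (Pearson r = 0.91 over 12 arrays), EIF4EBP2 (0.89) and GARS1 (0.85), and for ZFP36 CHMP4A (0.97), DDIT4 (0.91) and ARF4 (0.90). The brighter AGO2 clone was most like YY1AP1 (0.93), CNKSR1 (0.91) and PGAP2 (0.91), of which CNKSR1 and PGAP2 lay at its own position 17 in other print blocks. The dimmer AGO2 clone was most like ACTC1 (0.95), NBR1 (0.94) and MAP6D1 (0.93). STAU2 had LSM5 (0.90), NRBP1 (0.86) and AHCYL1 (0.86) for the brighter clone, and MARCO, HNRNPUL1 and ALKBH4 (0.83, 0.82 and 0.82) for the dimmer. LSM6 was most like ETS2 (0.94), CDC42 (0.93) and MAP7D1 (0.93). EXOSC4 was most like SLC25A15, IGHV5-78 (each 0.98) and CDH1 (0.97), of which the first 2 shared its position 11. The 12 arrays share their scaling, and these values are descriptions. Positions were also shared between ZFP36L1 and EPHA4 (position 4), ZFP36 and DDIT4 (3), and LSM6 and MAP7D1 (3).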

How the data were processed

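Total RNA of 12 hippocampal culture samples was labelled with 33P and hybridized to nylon arrays of cDNA clones. Each deposited value is the raw linear intensity of a spot, which the authors took from phosphor images and did not normalize between arrays. The series matrix held identical intensities (100% of values). The labels describe each sample as 3 coverslips pooled, and the methods describe RNA pooled from separate experiments. The clones are annotated with human symbols, and a clone may also bind RNA of a related rat gene. Of 9600 spots 8496 had 1 symbol, 21 several and 1083 none.

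Log2 intensities were z-transformed per array and multiplied by the mean SD, 1.75. All samples bear the same replicate number, and no condition has a second array. The spread behind the p-values is therefore the disagreement between single pooled samples of different conditions. Besides noise it holds any dependence of an effect on time or on the other treatment that the fit has no term for. limma 3.58.1 in R 4.3.3 (lmFit, eBayes with intensity trend, two-sided, Benjamini-Hochberg over all spots, threshold 0.05) was fitted to all 12 arrays with time, activity and ActD as terms and 7 residual degrees of freedom (6 with the interaction), and was tested on simulated data. The simulated shifts were larger than the differences of the member clones, in independent noise without effects of print position or brightness. That test therefore says nothing about such effects in the calls. The number of arrays limits the precision. Position 25 of the print blocks was taken as blank. Tables and plots were made with Python 3.11.15. The genes, lists and alternatives were chosen with earlier results of these data known. Besides the 6 genes, those named from each list had a clone past 1.4 on the same side with and without ActD, or the largest and smallest mean z-fold above the lowest 25% of intensity, and for likeness the 3 clones with the highest correlation were named. Alternatives were median centring, quantile normalization, an offset of 10, leaving out dim spots, removing print medians, no intensity trend, a z-fold of 2, another SD, and leaving out each array. LSM14A, CNOT8, EIF4A3 and MCL1, the other list genes called at 60 min, were named after their values were seen.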

Additional observations from a re-analysis of the deposited data

Results flagged for a closer look

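In 5 cases all pairs of arrays of a clone lay on 1 side of 0 in one set of conditions and on the other side in another. These differences were not tested, and the z-folds involved were all inside the cut of 1.4. For the dimmer AGO2 clone the z-folds at 5, 30 and 60 min were -0.57, 0.45 and -0.61 with ActD, against -0.43, 0.71 and -0.24 without. Their mean at 30 min differed from that at 5 min by 1.09, and their mean at 60 min from that at 30 min by -1.01. For EXOSC4 they were -0.43, 0.40 and 0.95 with ActD, against -0.05, 1.02 and 0.52 without, and the mean was 0.953 higher at 30 min and 0.979 higher at 60 min than at 5 min. Of all spots 17.7% showed such opposite pairs between 30 and 5 min, 14.1% between 60 and 5 min and 14% between 60 and 30 min. For ZFP36 the z-folds with ActD were -0.07, -0.75 and -0.28 at 5, 30 and 60 min, against 0.73, 0.69 and 0.09 without ActD, a difference of means of -0.873, and 3.22% of spots had opposite signs of this kind. With print block and position medians removed 3 of the 5 cases were lost, both of the dimmer AGO2 clone (-0.48 at 30 min with and 0.38 at 60 min without ActD) and that of ZFP36 (0.18 at 30 min with and -0.57 at 60 min without ActD), and the 2 of EXOSC4 were kept.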

How the results depend on the processing

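The z-folds of ZFP36L1 at 60 min and the fall of the brighter AGO2 clone (past the threshold in 19 of 19 settings, -1.998 to -1.79) kept their direction and their side of the threshold throughout. The number of member z-folds past the cut, 2 in the report, was 5 without blank, placeholder and dim spots, 4 with print medians removed and 6 with the SD of brighter spots, by adding ZFP36L1 at 5 min, the brighter AGO2 clone, the dimmer STAU2 clone or EXOSC4. Calls for 30 against 5 min (39) became 10 with print medians removed, 23 with quantile normalization, 97 without dim spots and 4 without the intensity trend, and 4 to 34 with 1 array left out. Calls for 60 against 30 min (302) became 501 with quantile normalization and 519 without dim spots, and 211 to 771 with 1 array left out, the most without 30 min BiC/4AP. Activity, ActD and their interaction had 0 calls with each array left out. Small time differences changed sign. For 30 against 5 min, print medians removed gave 0.0502 for ZFP36, -0.0312 for the dimmer AGO2 clone and -0.0800 for the brighter STAU2 clone, quantile normalization gave -0.00662 for ZFP36L1, and leaving out 1 array gave -0.11 to 0.24 for ZFP36L1 and -0.00646 to 0.222 for the dimmer AGO2 clone. For 60 against 30 min the dimmer STAU2 clone was at 0.0209 with the offset, 0.0831 with print medians removed and -0.0909 to 0.0787 with 1 array left out. Near the threshold for 60 against 30 min, EXOSC4 passed without the 30 min BiC/4AP array (0.65, limma adjusted p = 0.0118), ZFP36 in 2 and the brighter STAU2 clone in 3 of 19 settings. No paired analysis was possible because all arrays carry the same replicate number, and arrays were matched by time and treatment only as terms of the fit.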
